A study of Mus musculus with 66 samples.

Results

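FGF and ERK pathway response genes were followed in RNA from mouse embryonic stem cells as a set of 35 genes chosen by name. The choice was made with earlier results of these data known. The 35 comprise 11 feedback inhibitors that ERK signalling switches on, 14 transcription factor and immediate-early targets of the pathway, and 10 pathway components (ligands, receptors, adaptors and kinases). All 35 symbols were matched among 55487 gene identifiers, and 31 of them passed the filter on low counts, beside 15421 genes in all. Those 31 are 11 of 11 feedback genes, 11 of 14 targets and 9 of 10 components.

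In this pathway an FGF ligand binds a receptor tyrosine kinase, the adaptor Grb2 brings the exchange factor Sos1 to Ras, and a kinase chain of Raf and MEK ends in ERK. Active ERK raises transcription of ETS and AP-1 factors and, at the same time, of its own inhibitors: the Dusp phosphatases, the Sprouty and Spred proteins and Il17rd. In mouse embryonic stem cells, autocrine Fgf4 acting through ERK is known for moving cells out of naive pluripotency, and a MEK inhibitor in the medium is widely used to hold them there.

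All cells were of the E14 line and are labelled untreated, and all grew in medium with 15% FBS, LIF, a GSK inhibitor at 3 uM and an inhibitor of MEK1/2 at 1 uM. The GDel1 group (2 libraries) and the GDel2 group (2 libraries) carry the genotype label Praf2 G4 Deletion, where G4 means the G-quadruplex fold of guanine-rich sequence, and the WT group (3 libraries) is wildtype. Whether GDel1 and GDel2 are separate clones, and whether replicates are separate cultures, is not stated in the labels, so p-values measure the spread between these libraries, which may be technical. RNA levels are reported, and the activity of the kinases was not measured in them.

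Depth ran from 12316853 to 18762704 expected counts per library, and transcripts of the mitochondrial genome took 4.83% to 9.91% of them. Praf2 checked the labels: it had 10.1 and 9.26 CPM in GDel1, 13.1 and 14.1 CPM in GDel2, and 27.5, 28.8 and 30.6 CPM in WT, so every library of a deletion lay below every WT library. CPM is a gene's count relative to the library size, with sizes scaled by TMM so that the bulk of genes stands level between libraries. The 10 embryonic stem cell markers, Pou5f1, Sox2 and Nanog among them, summed to 4829 to 5146 CPM in GDel1, 4810 to 5047 CPM in GDel2 and 5350 to 5416 CPM in WT. The GDel2 libraries stood apart on chromosome Y, which holds no member: its 6 tested genes summed to 16.4 and 12.6 CPM in GDel2, 317 and 319 CPM in GDel1, and 274, 246 and 266 CPM in WT, and 5 of the 6 were called lower in GDel2 than in WT. The part of that difference in the members' levels was not tested.

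The levels were ordered with TPM, a relative transcript abundance that takes account of length and so allows genes to be compared within a library. Fgf4, the autocrine ligand of embryonic stem cells, was the most abundant of the 35 by WT mean at 80.8 ± 9.24 TPM (SD, n = 3). It had 62.0 and 51.2 TPM in GDel1, 75.5 and 64.2 TPM in GDel2 and 91.5, 76.0 and 74.96 TPM in WT. Etv5, an ETS factor of the PEA3 subfamily, came next at 68.5 ± 5.75 TPM in WT, and its WT range met that of Fgf4. Mapk3, the kinase ERK1, followed at 49.1 ± 7.77 TPM, then Map2k1, the kinase MEK1, at 28.5 ± 1.89 TPM and Grb2 at 24.0 ± 1.90 TPM. The rank of Mapk3 rests on a short deposited length, 758 bases in WT replicate 1. By CPM, which takes no account of length, its WT mean was 46.8, below those of Map2k1 (97.6) and Grb2 (90.1).

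Ordered this way, 13 of the 35 genes had a WT mean over 10 TPM, 11 lay from 1 to 10 TPM and 11 lay under 1 TPM. In 9 of the 34 pairs of neighbours in the order the WT range of the upper gene cleared that of the lower one, and in the other pairs the ranges met. Of the 10 components, 6 were among the 13 most abundant genes (Fgf4, Mapk3, Map2k1, Grb2, Map2k2 and Fgfr1). The other components lay lower in WT, Sos1 at 9.13 ± 0.88 TPM, Fgfr2 at 1.5 ± 0.49 TPM and Tgfa at 0.20 ± 0.12 TPM, and Fgf5 was the lowest of all 35. Of the immediate-early targets, Ier2 averaged 18.8 ± 1.92 TPM in WT, Ier3 2.09 ± 0.43 TPM and Junb 1.16 ± 0.13 TPM. Fos, at 0.22 ± 0.11 TPM, and Jun, Phlda1, Fosl1, Fosb and Egr1, the last at 0.0633 ± 0.0306 TPM, lay under 1 TPM.

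**Figure D1:**
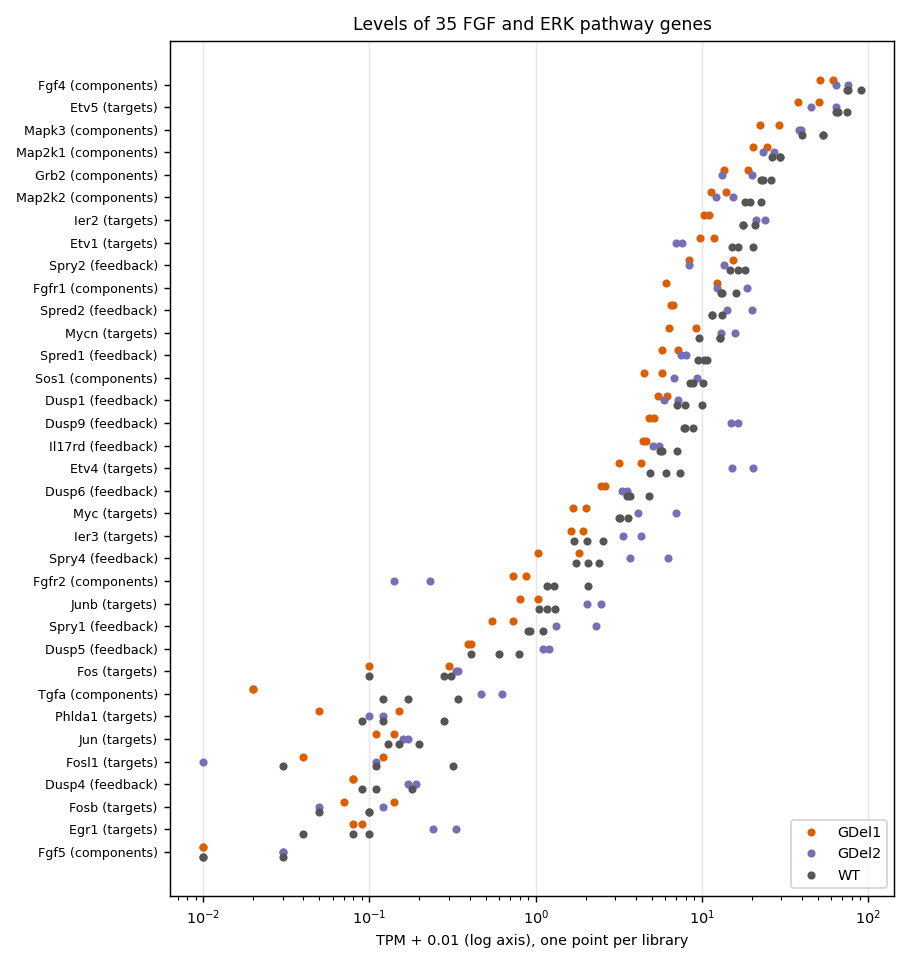
Level of each of the 35 genes (rows, from highest to lowest WT mean) in each library, as TPM + 0.01 on a log axis, with GDel1 in orange, GDel2 in purple and WT in grey. Fgf4 and Etv5 lead, 11 genes lie under 1 TPM in WT, and Etv4, Dusp9, Spry4, Tgfa and Egr1 show GDel2 libraries to the right of the others, while Fgfr2 shows them to the left.

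The 4 genes that were not tested stood at very few counts. The highest rounded count in any library was 12 for Fosb and 4 for Fosl1, both AP-1 subunits. It was 10 for Phlda1, a pleckstrin-homology protein and immediate-early gene, and 1 for Fgf5, the ligand that marks the primed epiblast. Of the tested genes, Egr1 passed the filter through its GDel2 libraries alone, Fgfr2 through GDel1 and WT alone, and Tgfa through GDel2 and WT alone, so the filter had a part in which genes of low level could be called.

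GDel2 cells differed from WT in many of these genes. Etv4, Spry4, Dusp5, Dusp9, Junb, Spry1, Ier3, Myc, Spred2, Ier2, Egr1 and Tgfa were higher in GDel2, and Fgfr2, Etv1, Grb2, Map2k2 and Spred1 were lower. By edgeR's quasi-likelihood test with Benjamini-Hochberg adjustment over all genes (adjusted p under 0.05), 17 of the 31 tested genes were called, which is 54.8%, against 33.1% of all 15421 genes. Of the 31, 12 were higher (38.7%, against 17.4% of all genes) and 5 lower (16.1%, against 15.6%). The 12 include Egr1, which passed the filter on low counts through GDel2 alone. The genes and their roles were chosen with earlier results of these data known. Shares and medians set beside all genes are therefore description and no independent test.

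By role, 5 of 11 feedback genes were higher and 1 lower, with a median log2 fold change of 0.57. For the targets, 6 of 11 were higher, Egr1 among them, and 1 lower, with a median of 0.78. The target median was the value of Fos, which was not called and had at most 14 counts in a library. The feedback median was the value of Spred2, whose neighbours on chromosome 11 had a median of 0.65. Among 9 components, 1 was higher and 3 lower, with a median of -0.12, and the median of all genes tested was 0.01. The medians of feedback genes and of targets stayed above 0 in every alternative run but moved. For feedback genes the median was 0.34 without WT replicate 3, 0.22 at a minimum count of 30, 0.21 without WT replicate 2 and 0.07 with limma on log2(TPM + 1). For targets it was 0.45 without GDel2 replicate 2, 0.41 without the filter on low counts, 0.37 without GDel2 replicate 1 and 0.26 with limma. Groups that did not overlap were found for 24 of the 31 genes (77.4%, against 63.2% of all genes). GDel2 lay above WT for 13 of them (32.2% of all genes did) and below for 11 (31% of all genes did). The difference between roles was not tested.

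**Figure D2:**
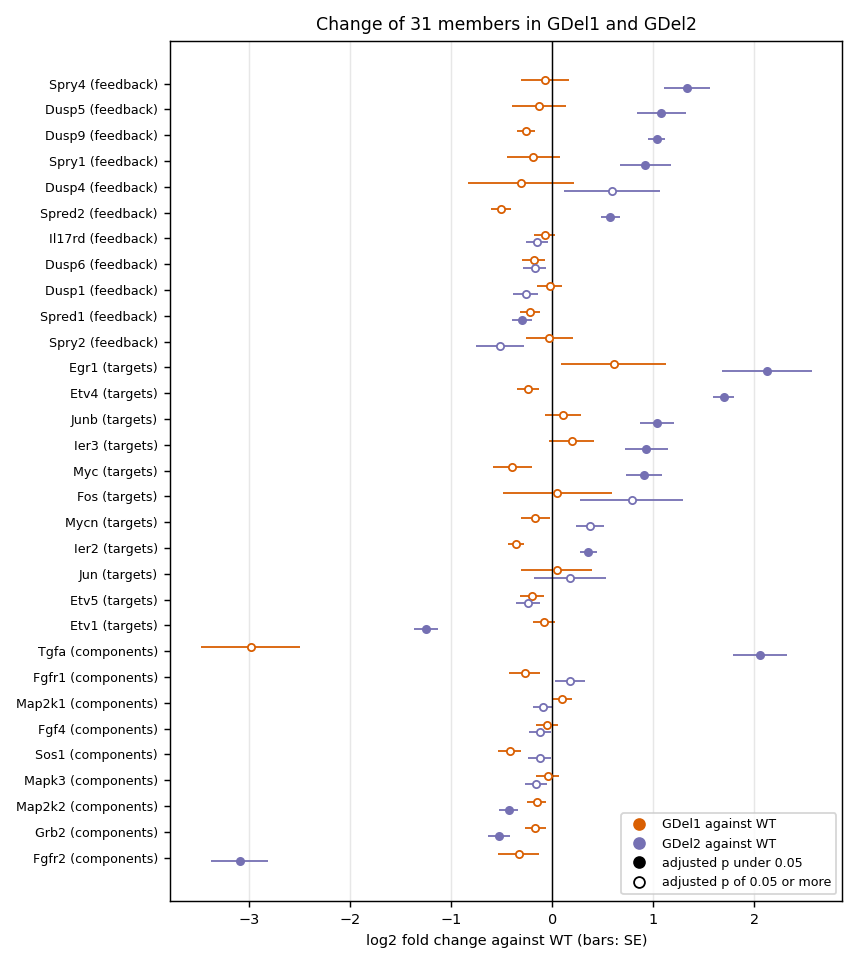
Log2 fold change against WT with its SE for the 31 tested genes, in GDel1 (orange) and GDel2 (purple), sorted within feedback genes, targets and components, with filled points at an edgeR adjusted p under 0.05. All filled points are GDel2, 12 to the right of 0 and 5 to the left, and no GDel1 point is filled.

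Of the feedback genes, Dusp9, a cytoplasmic phosphatase that removes the activating phosphates of ERK, showed the tightest separation. It had 64.1 and 68.2 CPM in GDel2, 27.0 and 27.1 CPM in GDel1, and 31.1, 33.5 and 32.4 CPM in WT. Both GDel2 libraries stood clear of the other 5, and Dusp9 rose by 1.03 ± 0.09 in GDel2 against WT (log2 fold change ± SE; edgeR adjusted p = 7.89e-05). Dusp5, the inducible nuclear ERK phosphatase, had 3.87 and 4.92 CPM in GDel2, 1.93 and 1.87 CPM in GDel1, and 2.502, 1.55 and 2.21 CPM in WT. Its rise in GDel2 was 1.08 ± 0.24 (edgeR adjusted p = 0.00988), and the call was lost without GDel2 replicate 2 (0.89, adjusted p = 0.0951).

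Dusp6, the cytoplasmic ERK phosphatase often used as a readout of the pathway, did not pass. It had 12.5 and 12.7 CPM in GDel2, 12.6 and 12.4 CPM in GDel1, and 15.2, 14.2 and 13.3 CPM in WT. All 4 libraries of the deletions lay just below the WT range, yet the log2 fold change in GDel2 was -0.17 ± 0.12 (edgeR adjusted p = 0.290). Dusp1, a phosphatase of several MAP kinases, and Dusp4, a nuclear one, did not pass either, at -0.26 ± 0.13 for Dusp1 and 0.59 ± 0.48 for Dusp4, which had at most 12 counts in a library.

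The Sprouty genes, which encode inhibitors acting between receptor and Ras, parted from each other. Spry4 had 43.7 and 29.999 CPM in GDel2, 10.3 and 17.1 CPM in GDel1, and 15.2, 15.6 and 13.0 CPM in WT. Both GDel2 libraries were above all others, and the rise was 1.34 ± 0.23 (edgeR adjusted p = 0.00329). Spry1 had 8.13 and 5.35 CPM in GDel2, 2.74 and 3.43 CPM in GDel1, and 2.80, 4.33 and 3.47 CPM in WT. It rose by 0.92 ± 0.25 in GDel2 (edgeR adjusted p = 0.0209), with GDel2 above every other library.

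The Spry1 call did not hold without GDel2 replicate 1 (0.58, adjusted p = 0.182), without WT replicate 1 (0.79, adjusted p = 0.0686) or without WT replicate 3 (0.91, adjusted p = 0.0696). Spry2, the most abundant of the 3, had 40.0 and 28.7 CPM in GDel2, 35.2 and 60.5 CPM in GDel1, and 48.1, 52.5 and 46.4 CPM in WT. GDel2 lay below WT, GDel1 lay on both sides of it, and the log2 fold change in GDel2 was -0.51 ± 0.24 (edgeR adjusted p = 0.139).

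The Spred genes, whose products restrain Ras at the membrane, also went apart. Spred2 had 121.7 and 103.4 CPM in GDel2, 55.0 and 51.6 CPM in GDel1, and 74.0, 76.4 and 76.2 CPM in WT. The 3 groups did not overlap, with GDel2 highest and GDel1 lowest, and the rise in GDel2 against WT was 0.57 ± 0.09 (edgeR adjusted p = 0.00200). The Spred2 call was lost with limma on log2(TPM + 1). Spred1 had 65.9 and 70.0 CPM in GDel2, 66.0 and 77.5 CPM in GDel1, and 78.7, 84.1 and 88.2 CPM in WT. Its fall in GDel2 was small, -0.30 ± 0.10 (edgeR adjusted p = 0.0486), and the call was lost on leaving out GDel2 replicate 1 or 2 or WT replicate 1, 2 or 3 (adjusted p from 0.0767 to 0.192). Il17rd, a transmembrane inhibitor of FGF signalling, did not pass (-0.15 ± 0.11).

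Of the targets, Etv4 changed with the lowest adjusted p of the whole set. Etv4, an ETS factor of the PEA3 subfamily and a standard FGF target, had 49.6 and 47.8 CPM in GDel2, 13.6 and 11.9 CPM in GDel1, and 15.8, 15.2 and 14.1 CPM in WT. GDel2 stood far above both other groups, with a rise of 1.70 ± 0.10 or 3.24-fold against WT (edgeR adjusted p = 1.78e-05). Its close relative Etv1 had 29.8 and 38.7 CPM in GDel2, 76.8 and 77.3 CPM in GDel1, and 83.0, 77.5 and 84.0 CPM in WT. Etv1 fell by 1.25 ± 0.12 on the log2 scale (2.37-fold lower in GDel2; edgeR adjusted p = 1.52e-04), and GDel2 lay below every other library.

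Etv5, the most abundant of these relatives, had 371.0 and 309.3 CPM in GDel2, 310.2 and 388.1 CPM in GDel1, and 394.1, 403.2 and 407.0 CPM in WT. All libraries of the deletions were below the WT range, and the log2 fold change in GDel2 was -0.24 ± 0.12 (edgeR adjusted p = 0.157). Thus of the PEA3 relatives 1 rose, 1 fell and 1 did not pass in the same libraries.

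Myc, the growth-promoting transcription factor, had 19.2 and 13.1 CPM in GDel2, 5.96 and 7.03 CPM in GDel1, and 8.68, 9.03 and 8.03 CPM in WT. GDel2 was highest and GDel1 lowest with no overlap, and Myc rose by 0.91 ± 0.18 in GDel2 against WT (edgeR adjusted p = 0.00486). The Myc call was lost with limma on log2(TPM + 1) and with a replicate block in the fit. Mycn, its relative, had 56.7 and 54.4 CPM in GDel2, 32.8 and 43.3 CPM in GDel1, and 42.3, 37.9 and 48.5 CPM in WT. Mycn missed the threshold in GDel2 against WT (0.37 ± 0.14, edgeR adjusted p = 0.0729), though both GDel2 libraries were above the WT range.

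Immediate-early genes rose in part. Junb, an AP-1 subunit, had 6.23 and 5.93 CPM in GDel2, 2.90 and 3.43 CPM in GDel1, and 2.94, 2.85 and 3.10 CPM in WT. Its rise in GDel2 was 1.03 ± 0.17 (edgeR adjusted p = 0.00214), with GDel2 above all other libraries. Ier3, an early-response gene linked to survival, had 6.39 and 5.78 CPM in GDel2, 3.46 and 3.80 CPM in GDel1, and 2.72, 2.72 and 4.04 CPM in WT. It rose by 0.93 ± 0.21 (edgeR adjusted p = 0.0107), a call lost without GDel2 replicate 1 (0.85, adjusted p = 0.0692).

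Ier2, an early-response nuclear protein, had 50.03 and 51.3 CPM in GDel2, 30.9 and 30.8 CPM in GDel1, and 39.5, 39.8 and 39.3 CPM in WT. Replicates lay close together and the 3 groups did not overlap, GDel2 being highest and GDel1 lowest. The change in GDel2 was small (0.36 ± 0.08, edgeR adjusted p = 0.00993) and missed the threshold without GDel2 replicate 2 (0.34, adjusted p = 0.0605).

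Egr1, a zinc-finger factor induced within minutes of ERK activation, was near the limit of detection. It passed the filter on low counts through its GDel2 libraries alone, the group where it is high, so its call as higher there adds no support. It had 18 and 16 counts in GDel2, 6 and 8 counts in GDel1, and 4, 7 and 3 counts in WT, or 1.42 and 1.16 CPM in GDel2, 0.483 and 0.416 CPM in GDel1, and 0.294, 0.433 and 0.158 CPM in WT. GDel2 was above all other libraries, and the rise against WT was 2.12 ± 0.45 (edgeR adjusted p = 0.00697), lost without GDel2 replicate 1 (1.96, adjusted p = 0.0539). Fos, the partner of Jun in AP-1, had 7 and 14 counts in GDel2, 5 and 10 counts in GDel1, and 6, 11 and 5 counts in WT. The groups overlapped and a change was not detectable at this depth (0.78 ± 0.51 in GDel2 against WT, edgeR adjusted p = 0.273), nor was one for Jun (0.18 ± 0.36, edgeR adjusted p = 0.751).

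Of the components, ligands and receptors first. Tgfa, the ligand of the EGF receptor, had 3.71 and 3.04 CPM in GDel2, 0.0805 and 0.104 CPM in GDel1, and 0.957, 0.804 and 0.683 CPM in WT, from 47 and 42 counts in GDel2, 1 and 2 counts in GDel1 and 13 counts in each WT library. The 3 groups stood apart, and Tgfa rose by 2.05 ± 0.27 in GDel2 against WT (edgeR adjusted p = 6.80e-04). Fgf4 had 329.2 and 327.7 CPM in GDel2, 389.9 and 299.6 CPM in GDel1, and 361.9, 360.0 and 349.2 CPM in WT. GDel2 was below the WT range by a small margin and Fgf4 did not pass (-0.12 ± 0.11, edgeR adjusted p = 0.454).

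Fgfr2, a receptor that in the early embryo marks the primitive endoderm more than the epiblast, fell the most of the 31 genes. It had 0.395 and 0.578 CPM in GDel2 (5 and 8 counts), 3.46 and 3.28 CPM in GDel1 (43 and 63 counts), and 4.49, 4.58 and 3.68 CPM in WT (61, 74 and 70 counts). GDel2 lay far below all others, and the fall against WT was -3.09 ± 0.28, or 8.52-fold (edgeR adjusted p = 1.17e-04). Fgfr1, the main FGF receptor of embryonic stem cells, had 86.7 and 65.1 CPM in GDel2, 46.9 and 63.9 CPM in GDel1, and 67.0, 67.8 and 66.6 CPM in WT. GDel2 lay on both sides of the WT range, and Fgfr1 did not pass (0.18 ± 0.15, edgeR adjusted p = 0.416).

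Below the receptor, Grb2 had 67.7 and 57.2 CPM in GDel2, 74.3 and 86.1 CPM in GDel1, and 91.2, 93.8 and 85.3 CPM in WT. It fell by 0.53 ± 0.11 on the log2 scale in GDel2 (edgeR adjusted p = 0.00665). Map2k2, the kinase MEK2, had 30.6 and 27.8 CPM in GDel2, 33.5 and 37.1 CPM in GDel1, and 38.7, 38.8 and 40.4 CPM in WT, and fell by 0.43 ± 0.10 (edgeR adjusted p = 0.00952). For both genes GDel2 was lowest and overlapped no other group. Both calls were lost without GDel2 replicate 2 (Grb2 -0.41, adjusted p = 0.0615; Map2k2 -0.36, adjusted p = 0.0764).

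Its partner kinase did not pass: Map2k1 had 91.1 and 91.7 CPM in GDel2, 97.7 and 111.3 CPM in GDel1, and 89.7, 97.1 and 105.9 CPM in WT (-0.09 ± 0.10 in GDel2 against WT, edgeR adjusted p = 0.512). Mapk3 had 44.98 and 38.8 CPM in GDel2, 41.5 and 49.0 CPM in GDel1, and 44.5, 48.3 and 47.5 CPM in WT (-0.16 ± 0.11, edgeR adjusted p = 0.305). The GDel2 range met that of WT for both kinases, while against GDel1 it met for Mapk3 and lay below for Map2k1. Sos1 did not pass in GDel2 against WT either (-0.12 ± 0.11, edgeR adjusted p = 0.434).

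Each paralog was also expressed as its share of the summed TPM of its relatives in the same library, a quantity that does not depend on scaling between libraries. Spry4 made up 28.2% and 27.5% of the Sprouty sum (Spry1, Spry2 and Spry4) in GDel2, 10.3% and 10.2% in GDel1, and 11.3%, 10.5% and 10.006% in WT. GDel2 stood apart, and GDel1 fell inside the WT range although its Spry4 CPM differed between replicates. Spry2 held 61.4% and 62.7% in GDel2, 84.2% and 85.8% in GDel1, and 84.6%, 83.9% and 84.7% in WT.

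Etv4 made up 22.3% and 22.2% of the PEA3 sum (Etv1, Etv4 and Etv5) in GDel2, 7.97% and 4.97% in GDel1, and 7.21%, 7.08% and 5.52% in WT. Etv1 held 7.62% and 11.1% in GDel2, 22.0% and 15.3% in GDel1, and 19.9%, 17.7% and 18.9% in WT, while Etv5 held most of the sum everywhere, 66.7% to 79.7% over the 7 libraries. So GDel2 had more Etv4 than Etv1, whereas each GDel1 and WT library had more Etv1 than Etv4.

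Dusp9 made up 57.8% and 58.7% of the sum of Dusp1, Dusp4, Dusp5, Dusp6 and Dusp9 in GDel2, 36.5% and 36.0% in GDel1, and 35.9%, 41.2% and 39.1% in WT. Spred2 made up 71.4% and 65.4% of the sum of Spred1 and Spred2 in GDel2, 53.3% and 48.2% in GDel1, and 55.0%, 54.6% and 52.9% in WT. Fgfr2 made up 1.17% and 1.04% of the sum of Fgfr1 and Fgfr2 in GDel2, 10.7% and 6.49% in GDel1, and 11.4%, 8.96% and 8.06% in WT. In each of these families the 2 GDel2 libraries lay outside the range of the other 5. These shares were computed after the fold changes were seen and carry no test.

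**Figure D3:**
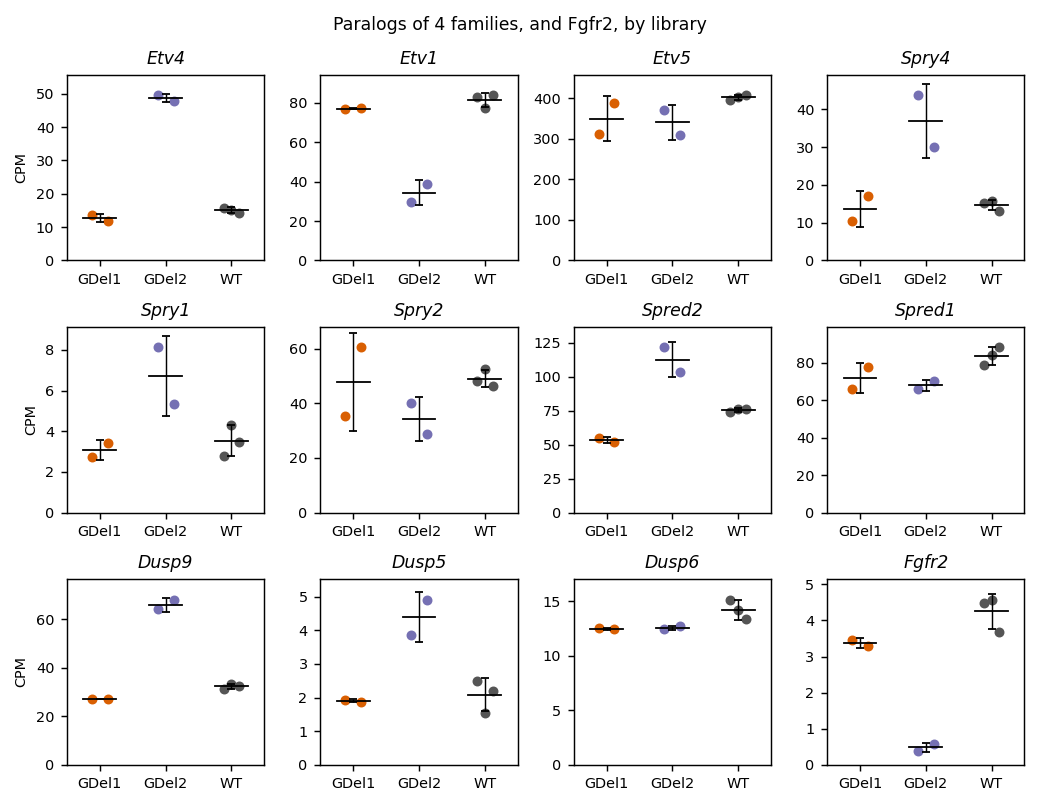
CPM of 12 genes by library (points) with the group mean and SD (lines and bars) for GDel1 (n = 2), GDel2 (n = 2) and WT (n = 3), each panel with its own axis from 0. Etv4, Spry4, Spry1, Spred2, Dusp9 and Dusp5 are highest in GDel2, Etv1 and Fgfr2 are lowest there, and Etv5, Spry2, Spred1 and Dusp6 have both GDel2 points below the WT points, by log2 fold changes of -0.51 (Spry2) to -0.17 (Dusp6).

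GDel1 cells differed from WT in none of the 31 genes by edgeR at an adjusted p under 0.05, where 0.376% of all genes (58 of 15421) were called. At an unadjusted p under 0.05 there were 5 of the 31, beside 3776 of all 15421 genes. DESeq2 called 2 of the 21 members to which it gave an adjusted p, both lower in GDel1, against 9.89% of all genes to which it gave one. Most GDel1 values were below 0: 25 of 31 log2 fold changes were negative, with a median of -0.17, against a median of 0.00262 over all genes. All 11 feedback genes were below 0, from -0.50 for Spred2 to -0.02 for Dusp1. Groups that did not overlap were found for 14 of the 31 genes (45.2%, against 43.5% of all genes), with GDel1 below WT in all 14 (22.6% of all genes lay below).

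The lowest adjusted p in GDel1 was that of Tgfa. Its 3 counts in GDel1 against 39 in WT gave an 8.43-fold lower level (95% exact counting interval 2.68 to 42.6-fold), with an edgeR adjusted p of 0.0515. Spred2 followed (-0.50 ± 0.10, edgeR adjusted p = 0.0528), then Ier2 (-0.36 ± 0.08, adjusted p = 0.0607) and Sos1 (-0.42 ± 0.11, adjusted p = 0.0767). Of the genes that rose or fell in GDel2, Etv4 (-0.24 ± 0.11, adjusted p = 0.222), Spry4 (-0.07 ± 0.24, adjusted p = 0.883), Etv1 (-0.08 ± 0.11, adjusted p = 0.701) and Fgfr2 (-0.33 ± 0.20, adjusted p = 0.347) did not pass in GDel1.

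The 2 GDel1 libraries differed from each other more than replicates did elsewhere (chi-square per degree of freedom 67.8 in GDel1 and 22.3 in GDel2, against 4.79 to 7.23 in WT). Without GDel1 replicate 1, and likewise without GDel1 replicate 2, edgeR called 3 members, all lower, beside 2034 genes in all (12.6%) without replicate 1 and 856 (5.38%) without replicate 2. The part of the replicate spread in the count of calls was not tested. The median of the targets, -0.08 over all libraries, was 0.09 without GDel1 replicate 1 and 0.11 without GDel1 replicate 1 and GDel2 replicate 2, while the medians of feedback genes and components stayed below 0 in every alternative run. With limma on TPM, where the median of all genes in GDel1 against WT lay at -0.30, 11 members were called lower, where 21.1% of all genes were called in either direction. Relative to that shift, the medians there were -0.15 for feedback genes, -0.25 for targets and -0.26 for components.

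GDel2 and GDel1 share a genotype label, and the test of their difference called 15 of the 31 genes (48.4%), against 27.7% of all genes. Higher in GDel2 than in GDel1 were 13 (41.9%, against 14.8% of all genes), and lower were Fgfr2 and Etv1 (6.45%, against 12.8%). The 13 include Egr1, which passed the filter on low counts through GDel2 alone. The same WT libraries enter both comparisons with WT. They do not enter the fold changes of GDel2 against GDel1, but they share its filter and its estimate of the spread, and a fit of the 4 deletion libraries alone called 11 members (14.5% of all genes). By role, 5 of 11 feedback genes and 7 of 11 targets were higher and 1 target was lower, and of 9 components 1 was higher and 1 lower. The groups did not overlap for 23 of the 31 genes (74.2%, against 59.1% of all genes), GDel2 lying above for 17 (29.9% of all genes did) and below for 6 (29.1% of all genes did).

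Tgfa had the widest gap, 89 counts in GDel2 against 3 in GDel1, a ratio of 35.4 with a 95% exact counting interval of 11.7 to 175 (edgeR adjusted p = 1.25e-04). Etv4 was 1.94 ± 0.12 higher (edgeR adjusted p = 2.86e-05), Dusp9 1.29 ± 0.10 (6.49e-05) and Spred2 1.08 ± 0.10 (2.25e-04), each as a log2 fold change with its adjusted p. Spry4, at 1.41 ± 0.26, and Myc, at 1.30 ± 0.20, also passed (edgeR adjusted p = 0.00553 and 0.00207). Mycn, which had not passed against WT, was higher in GDel2 than in GDel1 (0.54 ± 0.16, edgeR adjusted p = 0.0321).

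With GDel1 and GDel2 pooled into 1 deletion group of 4 libraries against 3 WT libraries, none of the 31 genes passed by edgeR, nor did any of the 15421 genes (0%). In that comparison 2930 of the 15421 genes had an unadjusted p under 0.05, and 4 of the 31 members did: Spred1, Egr1, Grb2 and Map2k2. Groups that did not overlap were found for 6 of the 31 genes (19.4%, against 21.7% of all genes), with 6 below WT (12% of all genes) and 0 above (9.73% of all genes). In this fit the gap between GDel1 and GDel2 counts as error; Etv4, for example, stood at 1.03 ± 0.52 (edgeR adjusted p = 0.311). Averaging GDel1 and GDel2 as separate groups of the 3-group fit, which does not count that gap as error, called 7 members and 3149 genes in all (20.4%).

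The libraries of a deletion were not alike within the group. Mitochondrial transcripts took 9.91% of GDel1 replicate 1 but 4.83% of its mate, and 9.60% of GDel2 replicate 2 but 6.19% of its mate, against 6.30% to 6.89% in WT. In both deletions, 14 of the 31 members were lower in the library with the higher mitochondrial share than in the other library (45.2%, against 33.4% of all genes), among them Spry2, Spry4, Myc, Etv5, Fgfr1 and Grb2, and 6 were higher in both (19.4%, against 30.7%). The part of the mitochondrial share in these levels was not tested. With both of those libraries left out, the median of feedback genes in GDel2 against WT was 0.58 and that of targets 0.37.

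**Figure D4:**
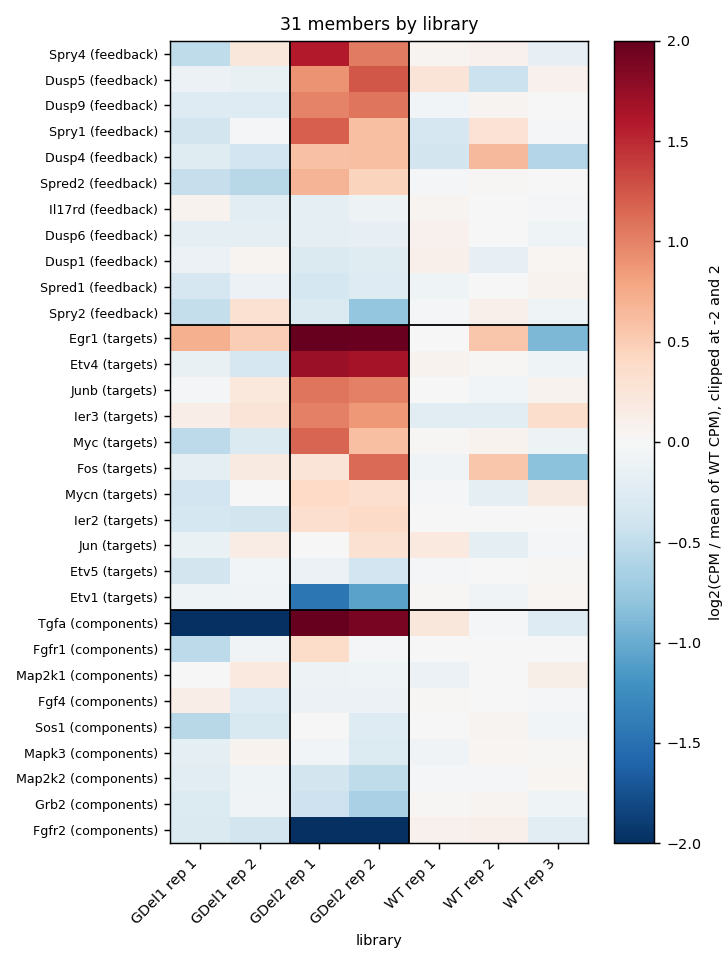
Each library's CPM over the WT mean as a log2 ratio (colour, clipped at -2 and 2) for the 31 tested genes, with libraries in columns (GDel1, GDel2, WT) and lines between groups and roles. Red rows in both GDel2 columns run through Spry4 to Spred2 among feedback genes and Egr1 to Myc among targets, with blue for Etv1 and Fgfr2; both GDel1 columns are blue for Tgfa and paler elsewhere.

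Library by library, the median log2 ratio of the 11 feedback genes to the WT mean was 0.58 and 0.45 in GDel2 and -0.26 and -0.15 in GDel1. For the 11 targets it was 0.40 and 0.61 in GDel2 and -0.14 and 0.01 in GDel1. For the 9 components it was -0.10 and -0.26 in GDel2 and -0.28 and -0.09 in GDel1. Both GDel2 libraries thus had feedback and target medians above those of both GDel1 libraries, and component medians within reach of them.

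Beside chromosome Y, values in GDel2 went with the position of a gene on chromosomes 6 and 8 and on part of chromosome 11. Genes of chromosome 6 had a median log2 fold change of 0.51 (658 genes) in GDel2 against WT, those of chromosome 8 had 0.44 (713 genes) and those of chromosome 11 had 0.10 (1090 genes), against medians of -0.02 to -0.01 in GDel1 for the same chromosomes. The chromosome 11 median was small, and chromosomes 7 (-0.13), 17 (-0.10) and 19 (-0.10) had medians of like size below 0 in GDel2 against WT. Positions are those of RefSeq genes on GRCm38.p6, the assembly also called mm10. Of the 12 members higher in GDel2, 5 lie on chromosomes 6, 8 and 11: Tgfa (chr6:86195038-86275744), Junb (chr8:84976909-84978748), Ier2 (chr8:84661331-84662852), Spred2 (chr11:19924442-20024026) and Etv4 (chr11:101769747-101785310).

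Beside the tested genes within 5 Mb of each, Spred2 (0.57) and Ier2 (0.36) did not stand out, since the medians of their neighbours were 0.65 (43 genes) and 0.47 (81 genes). Junb (1.03) exceeded its neighbours' median of 0.44 (79 genes), and Tgfa (2.05) its neighbours' 0.51 (103 genes). Etv4 (1.70) lay among neighbours with a median of -0.01 (189 genes), and Grb2 (-0.53), also on chromosome 11, among neighbours at -0.17 (124 genes). The rise near Spred2 was thus not shared by the parts of chromosome 11 that hold Etv4 and Grb2. Etv1 (-1.25) fell although its neighbours on chromosome 12 had a median of 0.36 (10 genes), and Fgfr2 (-3.09) lay on chromosome 7 among neighbours at -0.21 (123 genes).

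The other members that rose, Egr1, Spry4, Dusp5, Dusp9, Ier3, Myc and Spry1, lie on chromosomes whose medians ran from -0.10 to 0.03. With members on chromosomes 6, 8 and 11 set aside, 11 of 23 were called in GDel2 against WT (47.8%, against 31.7% of 11175 genes placed elsewhere). Of these 23, 7 were higher, Egr1 among them (30.4%, against 13.7%), and 4 lower (17.4%, against 17.9%). In GDel2 against GDel1 it was 10 of 23 (43.5%, against 26.0%). What the chromosomal shift contributed to the members on chromosomes 6, 8 and 11 was not tested further.

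**Figure D5:**
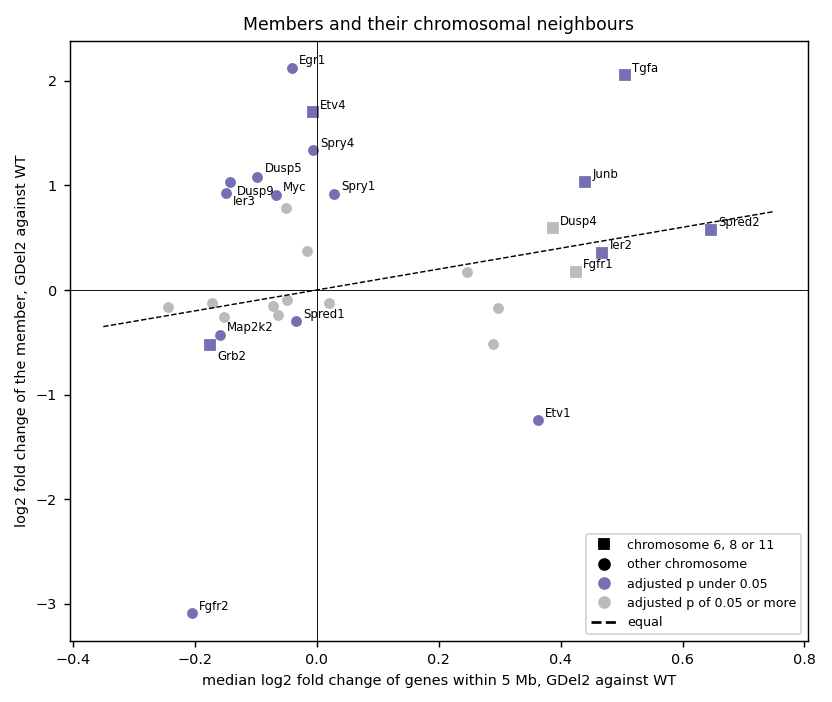
Log2 fold change of each tested member in GDel2 against WT (vertical axis) against the median log2 fold change of tested genes within 5 Mb of it (horizontal axis), with squares for chromosomes 6, 8 and 11, purple for an adjusted p under 0.05 and a dashed line where both are equal. Spred2, Ier2, Fgfr1 and Dusp4 lie near the line at the right, while Etv4, Egr1, Spry4, Dusp5, Dusp9, Myc, Ier3 and Spry1 stand far above neighbours near 0, and Fgfr2 and Etv1 far below theirs.

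Promoter windows, from 250 bases before to 50 bases after a gene's start, were held by RefSeq tables (GRCm38.p6) for 24 of the 35 members. These windows were searched on both strands for short letters of factors that act below ERK. TGANTCA, the AP-1 letters, was in 0 of 24 members and in 7.81% of all 32851 windows. CCGGAAG, an ETS core, was in 0 of 24 and in 8.86% of all windows. TGACGTC, of the cyclic AMP response element, was in 2 (Dusp1 and Spred2) and in 3.21% of all windows, and CCATATT, part of the CArG box bound by serum response factor, was in 2 (Dusp5 and Spred2) and in 2.15% of all windows. A match is a run of letters in this window and no evidence of binding, and in the members no match of one search overlapped that of another.

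The windows of Spred2 and Dusp5 are shown because both genes are feedback inhibitors that rose in GDel2 and theirs are the called-higher windows that hold a match (chosen after their values were seen). The matching letters are in capitals, read on the strand of the gene. In Spred2, GACGTCA (53 bases before the start) and AATATGG (from the start on) are the reverse complements of the letters searched. In Dusp5, CCATATT begins 82 bases before the start.
Spred2 promoter, chr11:19924192-19924491, plus strand, GRCm38.p6: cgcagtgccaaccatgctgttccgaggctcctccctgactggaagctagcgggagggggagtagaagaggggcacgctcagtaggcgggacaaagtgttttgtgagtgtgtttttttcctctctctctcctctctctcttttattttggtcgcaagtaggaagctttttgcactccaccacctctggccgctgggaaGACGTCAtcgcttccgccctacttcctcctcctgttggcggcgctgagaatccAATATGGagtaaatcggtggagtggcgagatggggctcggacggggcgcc
Dusp5 promoter, chr19:53528895-53529194, plus strand, GRCm38.p6: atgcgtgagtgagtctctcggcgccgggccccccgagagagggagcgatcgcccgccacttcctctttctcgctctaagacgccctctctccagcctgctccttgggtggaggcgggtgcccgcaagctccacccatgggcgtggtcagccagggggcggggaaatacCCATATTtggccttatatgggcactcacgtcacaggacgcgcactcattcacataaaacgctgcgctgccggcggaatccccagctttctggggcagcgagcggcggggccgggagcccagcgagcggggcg

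A second list of 72 other genes of the pathway gave the surroundings of the members, and 59 of them were tested. Of the 59, Fgf2 and Klb passed the filter on low counts through GDel2 alone. Fosl2 and Ier5 would not have passed without GDel2, and Ets1 passed through GDel1 and WT alone. Where such genes were called, they add no support to the counts below. In GDel2 against WT, 18 were higher (30.5%, against 17.4% of all genes) and 10 lower (16.9%, against 15.6%), with a median of 0.01. In GDel1 against WT none of the 59 passed (0.376% of all genes did). An unadjusted p under 0.05 was found for 15 of the 59, beside 3776 of all 15421 genes. In GDel2 against GDel1, 19 were higher (32.2%, against 14.8% of all genes) and 5 lower (8.47%, against 12.8%).

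Values are given for genes of lowest adjusted p in GDel2 against WT. Fgf17, an FGF ligand, had 9.55 and 9.18 CPM in GDel2, 2.41 and 2.29 CPM in GDel1, and 1.32, 1.55 and 1.10 CPM in WT (2.82 ± 0.19 in GDel2 against WT, edgeR adjusted p = 2.96e-05). Fgf15, a ligand of the FGF19 subfamily, had 3.95 and 4.12 CPM in GDel2, 0.724 and 0.781 CPM in GDel1, and 1.03, 1.18 and 0.945 CPM in WT (1.94 ± 0.22, edgeR adjusted p = 3.59e-04). Fgf2, basic FGF, had 1.74 and 1.30 CPM in GDel2, 0.322 and 0.260 CPM in GDel1, and 0.147, 0.247 and 0.0525 CPM in WT (3.32 ± 0.51, edgeR adjusted p = 0.00154). For these ligands both GDel2 libraries were above every other library. Fgf2 passed the filter on low counts through its GDel2 libraries alone, the group where it is high, so its call adds no support.

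Ccnd1, the cyclin that ERK signalling raises in many cells, had 148.6 and 149.1 CPM in GDel2, 103.4 and 97.3 CPM in GDel1, and 95.02, 100.5 and 94.4 CPM in WT (0.62 ± 0.08, edgeR adjusted p = 5.84e-04). Both GDel2 libraries were above all others. Egfr, the receptor for Tgfa, fell: it had 1.18 and 1.01 CPM in GDel2, 2.495 and 2.39 CPM in GDel1, and 3.02, 3.46 and 3.52 CPM in WT (-1.60 ± 0.23, edgeR adjusted p = 0.00112). So the ligand Tgfa was higher and its receptor lower in GDel2.

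Marker lists were read beside these changes. Of all genes, 17.4% were called higher and 15.6% lower in GDel2 against WT, and the counts of every list below stand beside these shares. In GDel2 against WT, 2 of 10 embryonic stem cell markers were higher (Zfp42 1.15 ± 0.09 and Nanog 0.40 ± 0.09) and 4 lower, Tfcp2l1 the most (-0.81 ± 0.12). Markers, unlike members, were not set beside the genes near them on their chromosomes. The part of the chromosomal shift of GDel2 in the values of the markers was not tested. Of 6 tested markers of formative and primed epiblast, 3 were higher (Dnmt3a, Pou3f1 and Fgf15, the last also counted in the second pathway list) and 3 lower (Dnmt3b, Lef1 and Otx2). Pou3f1 would not have passed the filter on low counts without its GDel2 libraries, and Lef1 passed through GDel1 and WT alone. The sum of that list was 112 to 113 CPM in GDel2, 118 to 130 CPM in GDel1 and 127 to 134 CPM in WT.

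Of 3 tested primitive endoderm markers, 2 were higher in GDel2 (Col4a1 1.39 ± 0.17 and Gata4 1.39 ± 0.37), and the list's sum of 8 genes was 13.6 to 15.9 CPM in GDel2, 3.62 to 3.85 CPM in GDel1 and 5.81 to 6.72 CPM in WT. Col4a1, a matrix gene, carried most of that sum, with 11.9 and 9.90 CPM in GDel2, 1.53 and 2.08 CPM in GDel1, and 4.34, 3.84 and 4.31 CPM in WT. The list's defining genes Gata6, Sox17 and Foxa2 stayed at or under 0.221 CPM in every library. In bulk RNA, fewer cells of a type and less RNA per cell cannot be told apart. The part of these markers in the members' levels was not tested.

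Of 3 tested markers of the two-cell-like state, Zscan4c, Zscan4d and Zscan4f, near-identical copies whose reads may be shared among them, all were higher in GDel2 (2.19 to 3.15), and the list of 8 summed to 14.2 to 16.4 CPM in GDel2, 1.20 to 1.93 CPM in GDel1 and 2.21 to 2.73 CPM in WT. Zscan4d passed the filter through its GDel2 libraries alone. Of 6 tested trophoblast markers, 3 were higher (Eomes 1.94 ± 0.14, Krt8 and Krt18) and 3 lower (Tfap2c, and Gata3 and Cdx2, which passed the filter through GDel1 and WT alone), with a sum of 34.7 to 40.7 CPM in GDel2, 30.1 to 38.8 CPM in GDel1 and 30.0002 to 31.1 CPM in WT. Among fibroblast feeder markers, Col3a1, Postn and S100a4 had no counts in any library. Of the 4 tested, Thy1 was higher and Vim and Fn1 lower in GDel2, and Vim and Fn1, which embryonic stem cells also express, carried nearly all of the sum of 718 to 1153 CPM in GDel2, 1105 to 1860 CPM in GDel1 and 2264 to 2350 CPM in WT. None of the markers passed in GDel1 against WT (0.376% of all genes did).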

How the data were processed

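Of 66 samples, the 7 RNA-Seq libraries were analysed and 59 are not analysed here. Per the labels' protocols, ribosomal RNA was removed from total RNA before directional libraries were made. Tools named in the submitters' processing notes, with no version, are RSEM, STAR, deepTools, Bowtie2 and HiC-Pro, with the build mm10. The strand counted and the annotation used are not given in sources used here, so reads of overlapping antisense genes may be shared. Per the file headers, each deposited table holds RSEM gene results: expected counts, which the authors did not scale for depth (6.91% to 8.22% of genes have a value that is not whole), and TPM, which the authors scaled over effective length to a fixed sum. The deposited FPKM values were not used, and deposited gene lengths are effective or mean lengths in bases.

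Expected counts were rounded. Genes were kept with filterByExpr of edgeR 4.0.16 under R 4.3.3 at a minimum count of 10 and a minimum total of 15; the 15421 genes kept held 99.9% of counts. TMM scaling, the robust quasi-likelihood F test and Benjamini-Hochberg adjustment over all genes tested were used, 2-sided, at a threshold of 0.05 on the adjusted p. A fit with 3 groups gave GDel2 against WT, GDel1 against WT and GDel2 against GDel1, and a fit with 2 groups gave the pooled deletion against WT. SE is the log2 fold change divided by the square root of F. Ratios from 3 counts have exact 95% intervals that cover counting error only. The scripts were tested on simulated counts.

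The members, the roles and the other lists were chosen with earlier results of these data known. Full values were given for every member past the threshold in any comparison and for Fgf4, Fgfr1, Fgfr2, Map2k1, Mapk3, Dusp6, Spry4, Etv5, Egr1, Fos and Myc, and for up to 6 genes of lowest adjusted p of each other list; 1 such result is not reported here. Spry3 and Dux had no matched symbol, and Areg and Ereg had no counts. Positions and promoters came from RefSeq tables of GRCm38.p6, matched by symbol. Alternatives were DESeq2 1.42.0, no filter and a stricter one (minimum count 30), limma 3.58.1 on log2(TPM + 1) with a trend, mitochondrial genes left out, a replicate block, each library left out, both libraries of highest mitochondrial share left out, and fits of only the groups compared.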

Additional observations from a re-analysis of the deposited data

Results flagged for a closer look

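The effect of the deletion label differed between GDel2 and GDel1 for 15 members, by the edgeR contrast of GDel2 against GDel1 itself, with GDel2 minus GDel1 on the log2 scale. The 15 include Egr1, which passed the filter on low counts through GDel2 alone. Among feedback genes the differences were 1.29 for Dusp9, 1.08 for Spred2, 1.41 for Spry4, 1.21 for Dusp5 and 1.11 for Spry1. Among targets they were 1.94 for Etv4, 1.30 for Myc, 0.93 for Junb, 0.72 for Ier2, 0.54 for Mycn, 1.52 for Egr1, 0.74 for Ier3 and -1.17 for Etv1. Among components they were 5.04 for Tgfa, a fitted value from 3 counts in GDel1 and so no bound, and -2.76 for Fgfr2.

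Dusp9, Etv4, Fgfr2, Myc, Spred2, Spry4 and Tgfa kept this call in all 17 alternatives run. Egr1 and Ier3 kept it in 5 of 16 and 5 of 17, and Mycn in 9 of 17: each was lost without GDel2 replicate 1 (Egr1 1.35, adjusted p = 0.180; Ier3 0.65, adjusted p = 0.182; Mycn 0.49, adjusted p = 0.149), without GDel2 replicate 2 (1.66, 0.81 and 0.57), without GDel1 replicate 1 (1.60, 0.67 and 0.35) and without WT replicate 1 (1.52, 0.74 and 0.54). Egr1 and Ier3 were also lost without GDel1 replicate 2 (1.39 and 0.81), and Ier3 without WT replicate 2 (0.74). Dusp5 was lost without GDel2 replicate 2 (1.02, adjusted p = 0.0812) and Spry1 without GDel2 replicate 1 (0.76, adjusted p = 0.134).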

How the results depend on the processing

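No called member changed direction under any alternative run. Over members and alternatives, calls of GDel2 against WT were kept 223 times and lost 31 times, and those of GDel2 against GDel1 were kept 213 times and lost 41 times. Shares in brackets are those of all genes called under the same setting. Members called in GDel2 against WT numbered 17 (33.1%), against 10 with limma on TPM (16.9%), 9 with the replicate block (14.9%) and 11 of 23 off chromosomes 6, 8 and 11 (added after the chromosome medians were seen); leaving out 1 library gave 12 to 20 (16.5% to 41.3%). With the replicate block the median was 0.36 for feedback genes and 0.47 for targets. The calls lost under it were those of Dusp5, Egr1, Grb2, Ier2, Map2k2, Myc, Spred1 and Spry1. With limma the calls of Grb2, Ier2, Map2k2, Myc, Spred1, Spred2 and Spry1 were lost. In GDel1 against WT, 0 members were called (0.376%), against 2 with DESeq2 (9.89%), 3 without a filter (8.58%), 11 with limma on TPM (21.1%) and 7 without GDel1 replicate 1 and GDel2 replicate 2 (26.3%); leaving out 1 library gave 0 to 3 (0.026% to 12.6%). In GDel2 against GDel1, 15 were called (27.7%), against 11 with the 4 deletion libraries alone (14.5%) and 9 with the replicate block on them (11.7%); leaving out 1 library gave 12 to 15 (16.2% to 34.7%). The pooled deletion gave 0, in every leave-one-out fit too, against 7 when the 3-group fit averaged GDel1 and GDel2. The causes were not tested. Over all genes, the calls in GDel1 against WT numbered 58, against 993 with DESeq2, 2357 without a filter and 3250 with limma on TPM.

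Whether the replicate numbers pair the samples could not be settled. Same-numbered GDel1 and GDel2 libraries deviated from their group means with r = -0.21 over 15421 genes, and those with WT at -0.11 to 0.10. With 2 libraries in a group the deviations mirror each other, so the crossed pairs of GDel1 and GDel2 had to give 0.21. The crossed pairing, added after that check, called 16 members in GDel2 against GDel1 (24.6% of all genes). Where 1 library of a group was left, it was assumed to vary like the other groups. Depth limits Fos, Jun, Egr1, Dusp4 and the 4 untested genes, which had under 20 counts per library.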
